A study of Homo sapiens with 6 samples.

Results

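The genes of microRNA processing and of the Argonaute proteins were followed in H69AR cells, a line of small cell lung cancer that was derived from NCI-H69 by selection in doxorubicin. The set was named gene by gene: DROSHA and DGCR8, which form the Microprocessor, the exporter XPO5, DICER1 with its partners TARBP2 and PRKRA, and the Argonautes AGO1, AGO2, AGO3 and AGO4. All 10 genes were found by symbol among the 60605 identifiers of the deposited count table, and all 10 were among the 15947 that passed the filter on low counts. With Supinoxin, 5 of the 10 transcripts rose (DICER1, AGO2, AGO4, XPO5 and DGCR8, by 1.68-fold to 2.63-fold) and 1 fell (TARBP2). DROSHA, PRKRA, AGO1 and AGO3 did not pass the test. By the same test, 48.6% of all genes tested changed in either direction, 23.4% higher and 25.2% lower. The 1 fall in 10 lies under that background and the 5 rises above it. However, of tested protein-coding genes with 9189 exonic bases or more, which include 5 of the 10, 43.9% were higher. Of those with 6386 to 9187 bases, which include 4 of the 10, 32.1% were. Whether the 5 rises exceed the share for genes of like length was not tested.

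A primary microRNA transcript is cut in the nucleus by the RNase III enzyme DROSHA together with DGCR8, which binds the hairpin. Exportin-5 carries the precursor to the cytoplasm, DICER1 trims it to a duplex, and an Argonaute keeps the guide strand and silences mRNAs that pair with it. DDX5, the RNA helicase through which the title of the series places the action of Supinoxin, is known as a partner of the Microprocessor on a subset of primary transcripts.

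Per the labels, 3 libraries came from confluent H69AR cells given 70 nM Supinoxin and 3 from H69AR cells with no drug treatment, all wild type, in medium with 20% fetal bovine serum. The sources used here give neither a treatment time nor a vehicle. Whether the replicates of a group were grown separately is not stated either, so each p-value reflects the spread between libraries alone, which may be technical. The libraries are of 1 drug-selected line, so they hold no other small cell lung cancer cells.

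Total counts ran from 30136963 to 39402804 per library. Untreated replicate 1 stood apart from the other untreated libraries: the chi-square over its degrees of freedom was 119 and 128 for pairs with it, against 31.6 for the remaining untreated pair and 4.71 to 8.08 among Supinoxin libraries. The processing and Argonaute genes lay lower there than in untreated replicates 2 and 3 averaged, by a median of 0.32 on the log2 scale (TARBP2 higher by 0.86). The samples are labelled epithelial: of 5 markers, KRT8 stood at 107 to 225 CPM (counts scaled to library size) and EPCAM at 1.06 to 1.44 with Supinoxin and 9.09 to 11.5 without, while CDH1 and KRT19 stayed under 1 CPM in every library. The epithelial list summed to 138 to 150 CPM with Supinoxin and 167 to 289 without. Among neuroendocrine markers, INSM1 was at 11.5 to 12.3 CPM with Supinoxin and 16.4 to 21.6 without, NCAM1 at 1.33 to 1.74 and 3.38 to 5.22, and SYP at 5.44 to 5.85 and 5.71 to 8.68, while NEUROD1 and CHGA were under 1 CPM. Of markers of other cells, all 3 endothelial and 4 of 5 leukocyte genes were under 1 CPM, and CD14 reached 1.57 (leukocyte sums 1.35 to 1.59 CPM with Supinoxin and 1.55 to 2.22 without). Of 5 fibroblast genes, DCN, LUM and PDGFRB were under 1 CPM while the collagen genes COL1A1 and COL1A2 were at 4523 to 5564 CPM with Supinoxin and 1754 to 2944 without (list sums 9209 to 10126 and 3683 to 5238). ABCC1, the drug exporter for which H69AR is known, was at 10116 to 10719 CPM with Supinoxin and 3095 to 4047 without. The part of these differences in the results below was not tested.

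The Microprocessor genes did not move together. DROSHA (ENSG00000113360, chromosome 5, 31400494 to 31532196, GRCh38) was counted at 42.2, 44.7 and 45.8 CPM in Supinoxin replicates 1 to 3 and at 38.1, 54.4 and 49.4 CPM in untreated replicates 1 to 3. The groups overlapped, since untreated replicate 1 was the lowest of the 6 libraries and untreated replicate 2 the highest. The log2 fold change, always given as Supinoxin minus untreated, was -0.10 (standard error of the fit, SE, 0.15; 95% interval -0.43 to 0.24; edgeR adjusted p = 0.61). DGCR8 (ENSG00000128191, chromosome 22, 20080221 to 20111877) was counted at 51.7, 57.9 and 52.4 CPM with Supinoxin and 25.4, 40.5 and 30.3 CPM without. Every Supinoxin library lay above every untreated one. DGCR8 rose 1.68-fold (log2 fold change 0.75, SE 0.17, edgeR adjusted p = 0.00675). In bulk RNA such a difference cannot be told apart between more cells that carry the transcript and more transcript per cell.

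Within a library, the ratio of the Microprocessor transcripts does not depend on scaling. Exonic length here counts each base that lies in an exon of any annotated transcript of a gene. Levels per kilobase, compared between genes, therefore depend on the annotation. Per kilobase of exon, DROSHA over DGCR8 stood at log2 ratios of -0.38, -0.46 and -0.28 with Supinoxin and 0.50, 0.34 and 0.62 without. DROSHA was thus the more abundant per kilobase in all 3 untreated libraries and DGCR8 in all 3 Supinoxin libraries. The means were -0.38 ± 0.09 and 0.49 ± 0.14 (SD, n = 3 each), a difference of -0.86 (exact two-sided permutation p = 0.1, the smallest that 3 against 3 libraries allow; adjusted p = 0.12 over 6 such measures).

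The DGCR8 transcript is itself known as a substrate of the Microprocessor, which cuts hairpins in its 5′ part. The annotation places 2 microRNA genes, MIR3618 and MIR1306, on its strand within its exons, and their mature products are shown here because they mark those hairpins, with the seed (bases 2 to 8) in capitals.
hsa-miR-3618: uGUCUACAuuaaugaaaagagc
hsa-miR-1306-5p: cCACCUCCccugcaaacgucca
hsa-miR-1306-3p: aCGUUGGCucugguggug
No 2 of these share a seed. miR-3618 lies at chr22:20085797-20085818 and miR-1306-5p at chr22:20086072-20086093, both on the plus strand. Mature microRNAs were not measured here, since the counts are per gene.

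XPO5 encodes exportin-5, which carries hairpin precursors out of the nucleus with RAN. XPO5 (ENSG00000124571, chromosome 6, 43522334 to 43576038) was counted at 43.0, 40.1 and 40.7 CPM with Supinoxin and at 18.4, 31.8 and 20.4 CPM without. The groups did not overlap, and untreated replicate 2 lay nearest to the Supinoxin libraries. XPO5 rose 1.75-fold (log2 fold change 0.81, SE 0.20, edgeR adjusted p = 0.0086), and the log2 fold change ran from 0.56 with an offset that removes trends with exonic length and GC content to 1.09 without untreated replicate 2. An antisense neighbour, POLR1C, shares 348 of its exonic bases. The sources used here do not give the strand setting of the counting, so reads of overlapping antisense genes cannot be told apart, and antisense exons cover up to 13.2% of the exonic bases of a gene among the 10 (TARBP2).

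DICER1, the cytoplasmic RNase III, had the largest rise of the 10 genes. DICER1 (ENSG00000100697, chromosome 14, 95086228 to 95158010) was counted at 116, 107 and 111 CPM with Supinoxin and at 31.1, 47.7 and 48.1 CPM without. The groups were far apart, and untreated replicate 1 was the lowest library. The mean went from 42.3 ± 9.7 to 111 ± 4.41 CPM (SD, n = 3 each), 2.63-fold higher (log2 1.39, SE 0.18, edgeR adjusted p = 0.000459). Without untreated replicate 1 the log2 fold change was 1.22, and the offset for length and GC content left 0.93 (adjusted p = 3.96e-05).

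The double-stranded RNA-binding partners of DICER1, TRBP (from TARBP2) and PACT (from PRKRA), had lower CPM in every Supinoxin library than in any untreated one, and of the pair only TARBP2 passed the test. TARBP2 (ENSG00000139546, chromosome 12, 53500921 to 53506431) was counted at 41.9, 46.5 and 41.5 CPM with Supinoxin and at 96.6, 51.4 and 54.9 CPM without. All untreated libraries were higher, and untreated replicate 1 stood far above the rest. TARBP2 fell 1.56-fold (log2 fold change -0.64, SE 0.23, edgeR adjusted p = 0.0405). Without untreated replicate 1 the log2 fold change was -0.29 (adjusted p = 0.0189), and without Supinoxin replicate 1, 2 or 3 the adjusted p was 0.111, 0.0784 and 0.112. With library size alone as the scaling it was -0.48 (adjusted p = 0.0652).

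PRKRA (ENSG00000180228, chromosome 2, 178431292 to 178451512) was counted at 25.2, 26.0 and 25.03 CPM with Supinoxin and at 28.8, 36.2 and 31.2 CPM without. The groups did not overlap, but the log2 difference of -0.34 (SE 0.13, 95% interval -0.63 to -0.04) did not pass after adjustment (edgeR adjusted p = 0.0569). Without untreated replicate 1 it was -0.40 with an adjusted p of 0.00688, and 6 of 14 alternative settings put PRKRA below the threshold. The lncRNA gene CHROMR overlaps 1068 exonic bases of PRKRA on the other strand. The log2 ratio of TARBP2 to PRKRA per kilobase was 2.33 ± 0.06 with Supinoxin and 2.58 ± 0.65 without (SD, n = 3 each; exact permutation p = 0.8), and the difference of -0.26 became 0.11 without untreated replicate 1.

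**Figure D1:**
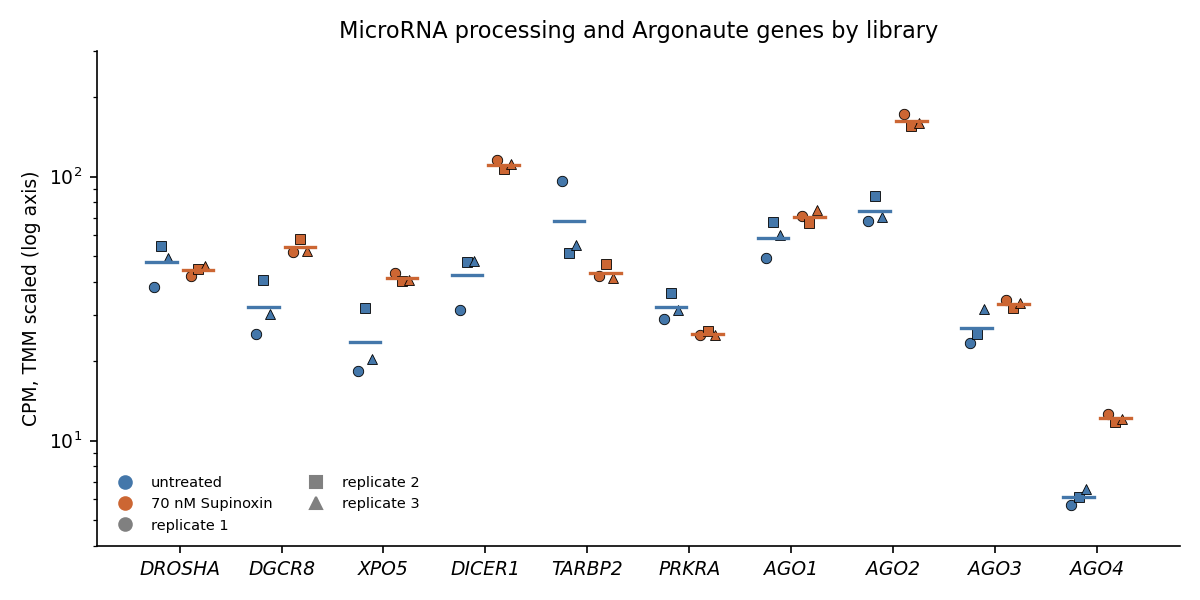
CPM after TMM scaling (vertical log axis) of the 10 genes in each library, with untreated libraries in blue, Supinoxin libraries in orange, marker shapes for replicates and bars for group means. DICER1 and AGO2 show the widest separation, and TARBP2 in untreated replicate 1, at 96.6 CPM, lies far above all other TARBP2 values.

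Among the Argonautes, AGO2, the family member known for cutting a fully paired target, had the highest level per kilobase of exon in both groups, and both AGO2 and AGO4 rose. AGO2 (ENSG00000123908, chromosome 8, 140520156 to 140635633) was counted at 172, 155 and 160 CPM with Supinoxin and at 68.0, 84.5 and 70.3 CPM without. The groups were far apart. AGO2 rose 2.19-fold, from 74.3 ± 8.95 to 162 ± 8.64 CPM (SD, n = 3 each; log2 fold change 1.13, SE 0.13, edgeR adjusted p = 0.000339), and by 0.71 on the log2 scale with the length and GC offset. AGO4 (ENSG00000134698, chromosome 1, 35808016 to 35857890), another member of the family, was counted at 12.6, 11.7 and 12.1 CPM with Supinoxin and at 5.7, 6.1 and 6.6 CPM without. Every Supinoxin library was far above every untreated library. AGO4 rose 1.98-fold (log2 fold change 0.98, SE 0.14, edgeR adjusted p = 0.000825).

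AGO1 and AGO3 lie beside AGO4 on the same strand of chromosome 1 and did not pass the test. AGO1 (ENSG00000092847, 35869808 to 35930532) was counted at 70.7, 66.5 and 74.5 CPM with Supinoxin and at 49.4, 67.1 and 60.0 CPM without. The groups overlapped, because untreated replicate 2 was above Supinoxin replicate 2. The log2 fold change was 0.26 (SE 0.14, 95% interval -0.06 to 0.58, edgeR adjusted p = 0.151). AGO3 (ENSG00000126070, 35930718 to 36072500) was counted at 34.0, 31.7 and 33.4 CPM with Supinoxin and at 23.4, 25.3 and 31.4 CPM without. The groups did not overlap, but untreated replicate 3 lay just below Supinoxin replicate 2. The AGO3 difference was 0.31 on the log2 scale (SE 0.14, edgeR adjusted p = 0.0993), which was 0.44 without untreated replicate 3 (adjusted p = 0.0139). Under the offset for length and GC content AGO1 and AGO3 turned to -0.12 and -0.16 (adjusted p = 0.277 and 0.186).

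AGO2 made up a larger share of the family in every Supinoxin library than in any untreated one, and AGO1 a smaller share. AGO2 made up 56.6%, 55.6% and 54.3% of the summed Argonaute level per kilobase with Supinoxin and 44.3%, 43.9% and 40.0% without. AGO1 made up 26.2%, 26.9% and 28.5% with Supinoxin and 36.3%, 39.4% and 38.5% without. The mean differences were 12.7 percentage points for AGO2 and -10.9 for AGO1, and AGO3 went from 11.6% ± 1.78 to 8.45% ± 0.07 and AGO4 from 7.58% ± 0.66 to 8.85% ± 0.12 (SD, n = 3 each). All 4 had an exact two-sided permutation p of 0.1, the smallest this design allows (adjusted p = 0.12). Exons of AGO2 share 47 bases with another gene on the same strand and those of AGO4 share none.

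**Figure D2:**
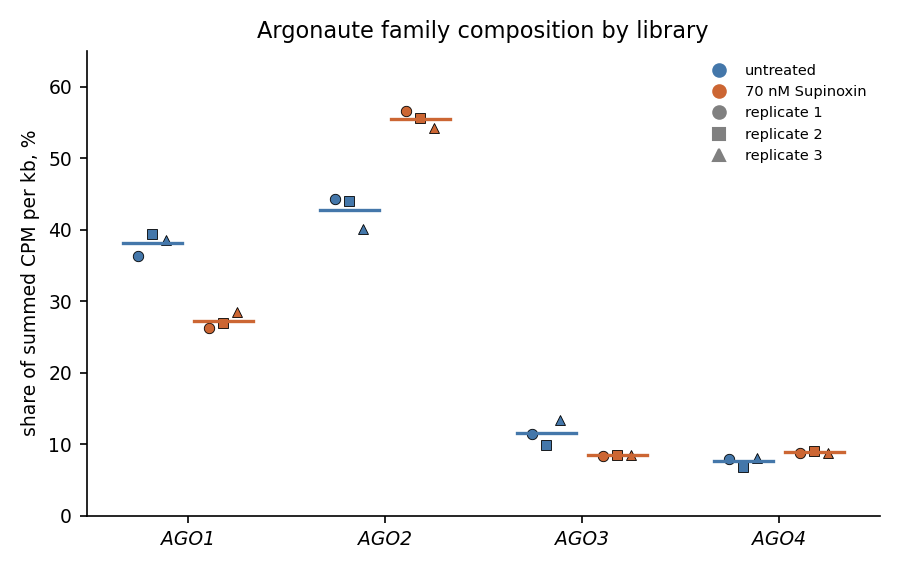
Share of each Argonaute gene in the summed CPM per kilobase of AGO1 to AGO4 (vertical axis, %), per library, with bars for group means. AGO2 lies between 54.3% and 56.6% in Supinoxin libraries and between 40.0% and 44.3% in untreated libraries, and AGO1 is lower in every Supinoxin library.

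The order of levels per kilobase of exon also differed between the groups. Places within a group rest on exonic lengths merged over all annotated transcripts, not on the transcripts present in these cells. In untreated cells TARBP2 was highest, at 16.5 ± 6.14 CPM per kilobase, followed by DROSHA at 6.08 ± 1.07, AGO2 at 4.69 ± 0.565, DGCR8 at 4.38 ± 1.06 and AGO1 at 4.19 ± 0.637 (SD, n = 3 each). XPO5, PRKRA, DICER1, AGO3 and AGO4 followed, from 2.78 ± 0.851 down to 0.827 ± 0.0606. The ranges of neighbouring genes overlapped from DROSHA to PRKRA and between DICER1 and AGO3, so those neighbours were not ordered beyond their spread. With Supinoxin, TARBP2 at 10.6 ± 0.679 and AGO2 at 10.3 ± 0.545 led with overlapping ranges, ahead of DGCR8 at 7.38 ± 0.462 and DROSHA at 5.68 ± 0.234. AGO1, DICER1 and XPO5, at 5.03, 5.02 and 4.87 CPM per kilobase, overlapped in neighbouring pairs, and PRKRA, AGO4 and AGO3 were lowest, at 2.11, 1.64 and 1.56.

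Relative to all genes, the median log2 fold change of the 10 was 0.53, against -0.00 over all 15947 genes tested, whose quartiles were -0.55 and 0.52. The Supinoxin libraries lay entirely above the untreated ones for 6 of the 10 genes and entirely below for 2, shares to be read against 31.3% and 31.1% of all genes tested. Exonic length moved with the change across the whole table. This length covers the exons of all annotated transcripts of a gene, and stood at 12061 bases for PRKRA and 4090 for TARBP2. DICER1, AGO1, AGO2, AGO3 and PRKRA are among the 2510 tested protein-coding genes with the longest exons (9189 bases or more), where the median log2 fold change was 0.38 and 43.9% were higher. AGO4, DGCR8, DROSHA and XPO5 are among the next 2509 by length, with a median of 0.17 and 32.1% higher, and TARBP2 is among 2509 genes of 2996 to 4567 bases with a median of -0.19, where 31.3% were lower. With the length and GC offset the median of the 10 was 0.22 and the same count of 5 were called higher. TARBP2, PRKRA and DROSHA were called lower there, DROSHA at -0.31 (edgeR adjusted p = 0.022). The share of all genes called under that offset is not given here, so whether these counts exceed it was not tested. In each of the 14 alternatives DICER1, AGO2, AGO4, XPO5 and DGCR8 were called higher.

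**Figure D3:**
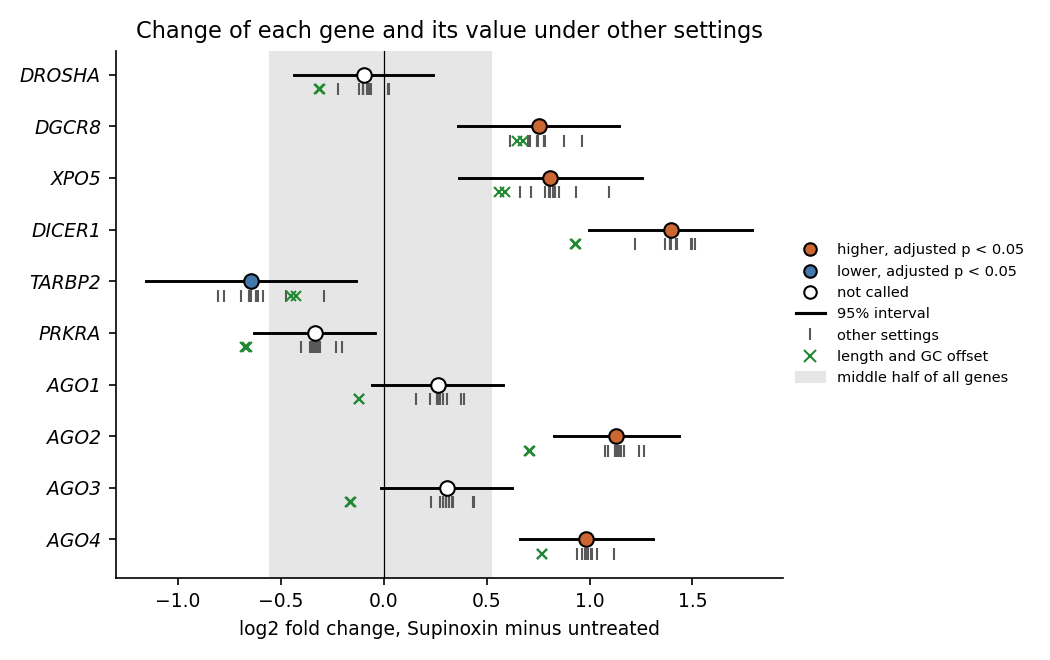
Log2 fold change of each gene, Supinoxin minus untreated (horizontal axis), with its 95% interval, filled where the edgeR adjusted p is under 0.05. Ticks below each point are the values under alternative settings, crosses those with the length and GC offset, and the grey band spans the quartiles of all genes tested, -0.55 to 0.52. The 5 filled orange points lie right of the band and stay positive under each setting.

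Promoters of DICER1 and AGO4, the largest rises with a promoter in the RefSeq table, are shown as the 250 bases before the RefSeq gene start (GRCh38.p14), on the strand of the gene, chr14:95157530-95157779 on the minus strand and chr1:35807766-35808015 on the plus strand. Capitals mark matches, on either strand, to any of GGGCGG (GC box), ACGTG (the core bound by HIF), CACGTG (the E-box, which contains the letters of the HIF core), CCAAT (the CCAAT box) and TATAAA (the TATA box).
DICER1 promoter: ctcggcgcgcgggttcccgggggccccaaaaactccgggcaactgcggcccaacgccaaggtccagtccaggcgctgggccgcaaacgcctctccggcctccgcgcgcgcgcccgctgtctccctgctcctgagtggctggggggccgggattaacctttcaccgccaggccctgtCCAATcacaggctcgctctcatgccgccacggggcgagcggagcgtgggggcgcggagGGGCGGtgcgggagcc
AGO4 promoter: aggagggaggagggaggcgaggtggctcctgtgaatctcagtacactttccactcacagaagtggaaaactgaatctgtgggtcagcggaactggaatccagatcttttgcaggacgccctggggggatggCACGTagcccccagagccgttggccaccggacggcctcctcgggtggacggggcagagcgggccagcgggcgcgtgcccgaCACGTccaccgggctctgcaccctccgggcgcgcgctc
DICER1 held 1 GC box and 1 CCAAT box, and AGO4 held ACGTG at 2 places and none of the others. Of the 9 genes with an entry, 8 held a GC box, 6 a CCAAT box and 1 ACGTG, against 42.6%, 32% and 18.5% of 35116 promoters of the same length. The GC content of the 9 ran from 58.8% to 80%, against a median of 58% over all promoters. The shares were not matched for GC content. None of the 9 held an E-box or a TATA box of these letters, which 6.34% and 10.7% of all promoters held. These are letters in a window and say nothing of binding.

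DROSHA, DICER1 and AGO2 were also set against 8944 other genes that carry a symbol and average 10 CPM or more, by Pearson correlation of log2 CPM over the 6 libraries. The closest to DICER1 were NUP50 (r = 0.9998) and PCNX4 (0.9997), and to AGO2 TFAP2A (0.9995) and ANKS1A (0.9992). The 6 libraries share the difference between the groups, and 1450 genes had r above 0.95 with DICER1 and 1157 with AGO2. For DROSHA, whose groups overlapped, 25 genes had r above 0.95, led by RALB (0.9844) and ERCC3 (0.9811).

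Cofactors of the Microprocessor, which help it choose or cut its hairpins, were mostly not called. Of 17 tested, 3 fell (17.6%, against 25.2% of all genes tested) and 0 rose (against 23.4%) by edgeR's quasi-likelihood test. At an unadjusted p under 0.05 the counts were 4 lower and 3 higher, beside 4577 and 4345 of all 15947 genes tested. DESeq2 called 4 lower and 2 higher, given here without its share over all genes. The median log2 fold change was -0.07, against -0.00 over all genes. SRSF3, a splicing factor that reads a motif beside hairpins, fell from 647 ± 42.8 to 440 ± 8.97 CPM (SD, n = 3 each; edgeR adjusted p = 0.00487). ERH, a small partner of DGCR8, and ILF2 fell by 0.47 and 0.46 on the log2 scale. Neither ERH nor ILF2 passed without any single Supinoxin library, so that 1 gene of the list fell in each of those fits. In all, the ERH call was lost in 6 of the 14 alternatives and the ILF2 call in 4. Without untreated replicate 1 the list counts were 5 lower and 5 higher. Without untreated replicate 2, 2 rose. DDX5 stood at 753, 787 and 767 CPM with Supinoxin and 696, 863 and 885 CPM without, with overlapping groups (log2 fold change -0.08, SE 0.14, edgeR adjusted p = 0.63; 0.043 when scaled by library size only, and -0.35 under the offset for length and GC content, adjusted p = 0.00757). DDX17 and DDX3X were at 0.37 and 0.35 (edgeR adjusted p = 0.0649 and 0.0652), and DDX3X was at -0.051 with the length and GC offset. Without untreated replicate 1 DDX17 passed at 0.25 (adjusted p = 0.0257). HNRNPA1 was listed at 0 in every library although dividing cells use it, and it was not read as silent. TSNAX, FKBP4 and EIF4ENIF1, of the lists below, were also at 0 throughout, as were 27 of the 87 listed host transcripts. None of these was tested.

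Among genes of precursor export, editing, tailing and turnover, 6 of 13 rose and 2 fell (median 0.20; -0.03 without untreated replicate 1). These are 46.2% and 15.4%, beside 23.4% and 25.2% of all genes tested. Among tested protein-coding genes with 9189 exonic bases or more, 43.9% were higher and 12.0% lower. The list is not matched to that class, since its exonic lengths run from 3091 to 16199 bases (TUT4). Whether its rises exceed the share for genes of like length was not tested. ZSWIM8, the receptor of a ubiquitin ligase that destroys Argonautes engaged by certain targets, rose 2.19-fold (25.3, 30.3 and 24.3 CPM against 10.4, 16.9 and 9.06; edgeR adjusted p = 0.0034). ADAR, which edits adenosines in double-stranded RNA, rose 1.65-fold (edgeR adjusted p = 0.00512). Its log2 fold change went from 0.72 to 0.38 with the length and GC offset. TUT7, which adds uridines to let-7 precursors, rose 1.72-fold (edgeR adjusted p = 0.00829). Its paralogue TUT4 rose 1.43-fold (adjusted p = 0.0203), a call lost without Supinoxin replicate 1, 2 or 3 and with the length and GC offset. Without Supinoxin replicate 2 the number that rose was 3, and without any 1 of the Supinoxin libraries the number that fell was 1. LIN28B, which blocks let-7 maturation, ran from 9.71 to 11.5 CPM with Supinoxin and from 5.54 to 12.9 without. Its log2 fold change was 0.20 (edgeR adjusted p = 0.547), and -0.044 without untreated replicate 1. RAN, the GTPase partner of exportin-5, fell 1.63-fold, from 1226 ± 112 to 752 ± 24.3 CPM (SD, n = 3 each; edgeR adjusted p = 0.00202). TSN fell by 0.34 on the log2 scale, a call lost without any single Supinoxin library and, in all, in 6 of the 14 alternatives. SND1 was at -0.33 (edgeR adjusted p = 0.0944).

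Genes that load or modify Argonaute gave 4 rises and 4 falls in 22 (median -0.02, 0.13 with library size alone), 18.2% in each direction against 23.4% and 25.2% of all genes tested. ANKRD52, a subunit of the phosphatase that dephosphorylates AGO2, rose 2.36-fold, from 65.3 ± 17.9 to 154 ± 5.73 CPM (SD, n = 3 each; edgeR adjusted p = 0.000999). P4HA2 and P4HA1, catalytic subunits of the collagen prolyl hydroxylase that also modifies AGO2, rose by 2.01-fold (edgeR adjusted p = 0.000952) and 1.4-fold (adjusted p = 0.00714), and P4HA1 did not pass without Supinoxin replicate 3. EGFR, a receptor kinase reported to phosphorylate AGO2, fell 3.11-fold, from 21.8 ± 3.72 to 7 ± 0.966 CPM (SD, n = 3 each; edgeR adjusted p = 0.000235). The HSP40 genes DNAJA1 and DNAJA2 fell by 0.37 and 0.36 on the log2 scale. Both calls were lost on leaving out untreated replicate 3 or any 1 of the Supinoxin libraries. In all, the DNAJA1 call was lost in 9 of the 14 alternatives and the DNAJA2 call in 8, among them library size alone and the replicate block. Without Supinoxin replicate 1, 2 or 3, or untreated replicate 3, 1 gene of this list fell, and without untreated replicate 1, 6 fell and 6 rose. Without Supinoxin replicate 3, 2 rose.

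Among GW182, deadenylation and decapping genes, which carry out silencing, 13 of 32 rose and 3 fell (median 0.26). These are 40.6% and 9.38% of the list, against 23.4% and 25.2% of all genes tested. For the protein-coding genes with the longest exons the shares were 43.9% and 12.0%. That class is not matched to the list, whose exonic lengths run from 2702 (CNOT11) to 19998 bases (TNRC6B). All 3 GW182 genes, whose proteins bridge Argonaute to the deadenylases, rose. TNRC6A was counted at 158, 158 and 160 CPM with Supinoxin and 63.4, 81.7 and 101 without, 1.93-fold higher (edgeR adjusted p = 0.00205). TNRC6B rose 1.91-fold (edgeR adjusted p = 0.00185) and TNRC6C 2.65-fold (adjusted p = 0.000243). The 3 were called higher in each of the 14 alternatives, with smaller changes under the length and GC offset. There the log2 fold change went from 0.95 to 0.60 for TNRC6A, from 0.93 to 0.48 for TNRC6B and from 1.41 to 1.09 for TNRC6C. LIMD1, which links Argonaute to the cap, rose 2.2-fold (edgeR adjusted p = 0.00184). CNOT10 and CNOT11, which form a module of the CCR4-NOT complex, fell 1.71-fold (edgeR adjusted p = 0.001) and 1.5-fold (adjusted p = 0.00318), and the cap-binding protein gene EIF4E2 fell 1.55-fold (adjusted p = 0.0116), a call lost without Supinoxin replicate 1. The number that fell was 9 with the length and GC offset, 5 without untreated replicate 1 and 2 without Supinoxin replicate 1.

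**Figure D4:**
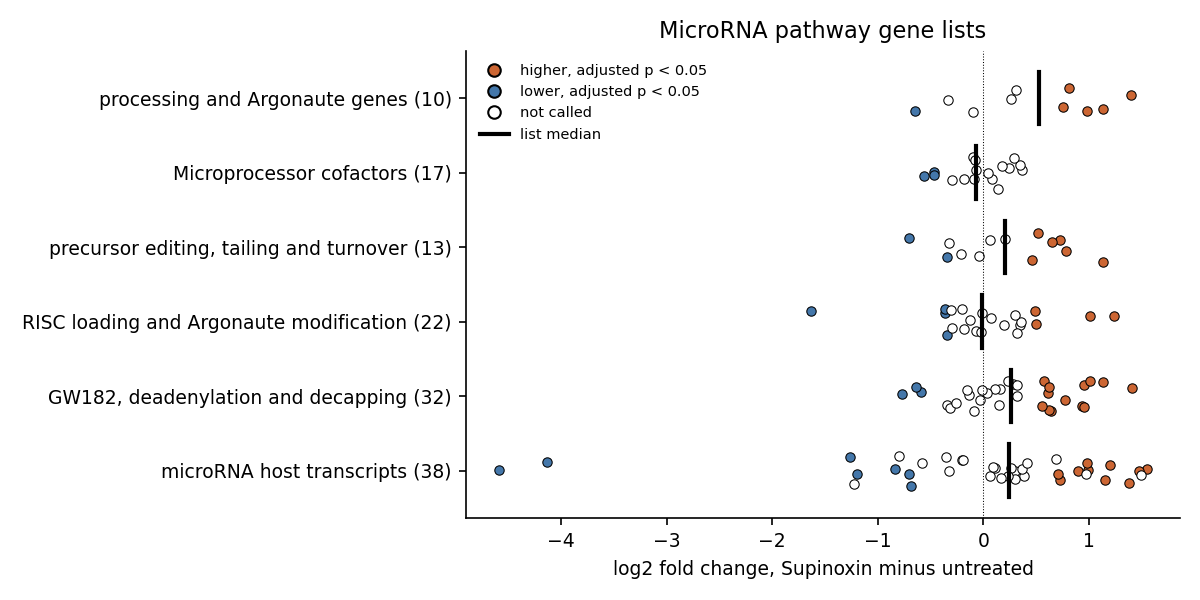
Log2 fold change, Supinoxin minus untreated (horizontal axis), of each tested gene in the processing and Argonaute set and in 5 lists of partners, with the number tested in parentheses, filled where the edgeR adjusted p is under 0.05, and a bar at each list median. The medians run from -0.07 for the Microprocessor cofactors to 0.53 for the processing and Argonaute genes.

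The substrates of the pathway are primary transcripts, and those with host gene names were tested among 87 listed. Of 38 tested, 10 rose and 7 fell (median 0.25), shares of 26.3% and 18.4% that lie near the 23.4% and 25.2% of all genes tested. MIR210HG, host of the hypoxia-induced miR-210, rose 2.93-fold, from 5.86, 3.38 and 4.3 CPM without Supinoxin to 13.8, 12.9 and 13.1 with it (edgeR adjusted p = 0.000541). MIR22HG rose 2.22-fold (edgeR adjusted p = 0.000549) and MIR4435-2HG 2.3-fold (adjusted p = 0.000431), and the log2 fold change of MIR4435-2HG went from 1.20 to 0.61 with the length and GC offset. MIR3667HG had 94 counts over the untreated and 4 over the Supinoxin libraries, a ratio of 26.5 (95% exact counting interval 10.03 to 99.4, counting error alone). MIR3171HG had 82 and 5, a ratio of 18.5 (95% exact counting interval 7.62 to 58.6). Untreated replicate 3 held 48 of the 82, and without it the log2 fold change of MIR3171HG went from -4.14 to -3.38. MIR4458HG fell 1.79-fold, from 14.2 ± 1.09 to 7.94 ± 0.351 CPM (SD, n = 3 each; edgeR adjusted p = 0.00149). Without untreated replicate 3, 16 host transcripts rose. A host count covers spliced exons and is not a level of the mature microRNA.

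Mature microRNAs inside the named hosts are shown with the seed in capitals, from RefSeq (GRCh38.p14), both arms of a hairpin where the table has both. MIR3667HG is named only.
hsa-miR-210-5p: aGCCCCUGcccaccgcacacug
hsa-miR-210-3p: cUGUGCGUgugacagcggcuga
hsa-miR-22-5p: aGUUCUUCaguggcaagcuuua
hsa-miR-22-3p: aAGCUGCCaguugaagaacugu
hsa-miR-4435: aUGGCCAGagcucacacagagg
hsa-miR-3171: aGAUGUAUggaaucuguauauauc
hsa-miR-4458: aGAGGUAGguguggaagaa
The seed of miR-4458 is the let-7 seed. In all, 7 tested hosts carry a microRNA with that seed, and their let-7 and let-7-like products are shown because they differ only outside it.
hsa-let-7a-5p: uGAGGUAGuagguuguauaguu
hsa-let-7b-5p: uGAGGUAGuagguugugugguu
hsa-let-7c-5p: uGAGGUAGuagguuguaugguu
hsa-let-7d-5p: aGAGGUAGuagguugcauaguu
hsa-let-7f-5p: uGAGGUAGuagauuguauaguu
hsa-let-7i-5p: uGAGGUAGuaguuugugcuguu
hsa-miR-4500: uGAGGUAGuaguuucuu
The let-7 family is known to target DICER1 and LIN28B mRNA, and the 7 hosts were singled out after their values were seen.

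Of these 7 hosts, 3 rose and 1 fell, where 23.4% and 25.2% of all genes tested did, and nothing is read from a count over hosts chosen in this way. MIRLET7IHG, host of let-7i, was counted at 28.7, 25.8 and 24.4 CPM with Supinoxin and 6.75, 11.3 and 12.4 without, with groups well apart (2.6-fold, edgeR adjusted p = 0.00112). MIRLET7BHG, host of let-7a and let-7b, was counted at 34.7, 37.3 and 33.1 CPM with Supinoxin and 21.9, 16.9 and 17.6 without (1.86-fold, edgeR adjusted p = 0.00119). Both were called higher in each of the 14 alternatives. MIR100HG, which holds let-7a, miR-100 and miR-125b, was counted at 114, 102 and 100 CPM with Supinoxin and 45.6, 60.2 and 84.8 without. It rose 1.66-fold (edgeR adjusted p = 0.0171), a call lost without Supinoxin replicate 1, without untreated replicate 2 and with the length and GC offset. MIR4458HG, the 1 that fell, is described with the host transcripts above.

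The other 3 hosts did not pass. MIR99AHG, host of let-7c, was at 36.3, 28.8 and 28.2 CPM with Supinoxin and 22.8, 23.4 and 70.6 without. Untreated replicate 3 alone was above the Supinoxin libraries, and the log2 fold change went from -0.32 (edgeR adjusted p = 0.514) to 0.43 without it (adjusted p = 0.0409) and to -0.91 under the offset for length and GC content (adjusted p = 0.00943). MIRLET7A1HG, host of let-7a, let-7f and let-7d, ran from 0.258 to 2.41 CPM in untreated and from 0.477 to 0.575 in Supinoxin libraries (log2 fold change -1.22, edgeR adjusted p = 0.135). Without untreated replicate 2 it was -1.70 (edgeR adjusted p = 0.016), whereas leaving out untreated replicate 3 gave -0.29 (edgeR adjusted p = 0.675). Untreated replicate 3 held 74 of its counts, against 34 and 9 in untreated replicates 1 and 2. MIR4500HG was at 0.607 to 0.716 CPM with Supinoxin and 0.172 to 0.503 without (log2 fold change 0.97, edgeR adjusted p = 0.0732; 1.37 without untreated replicate 1, adjusted p = 0.023).

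**Figure D5:**
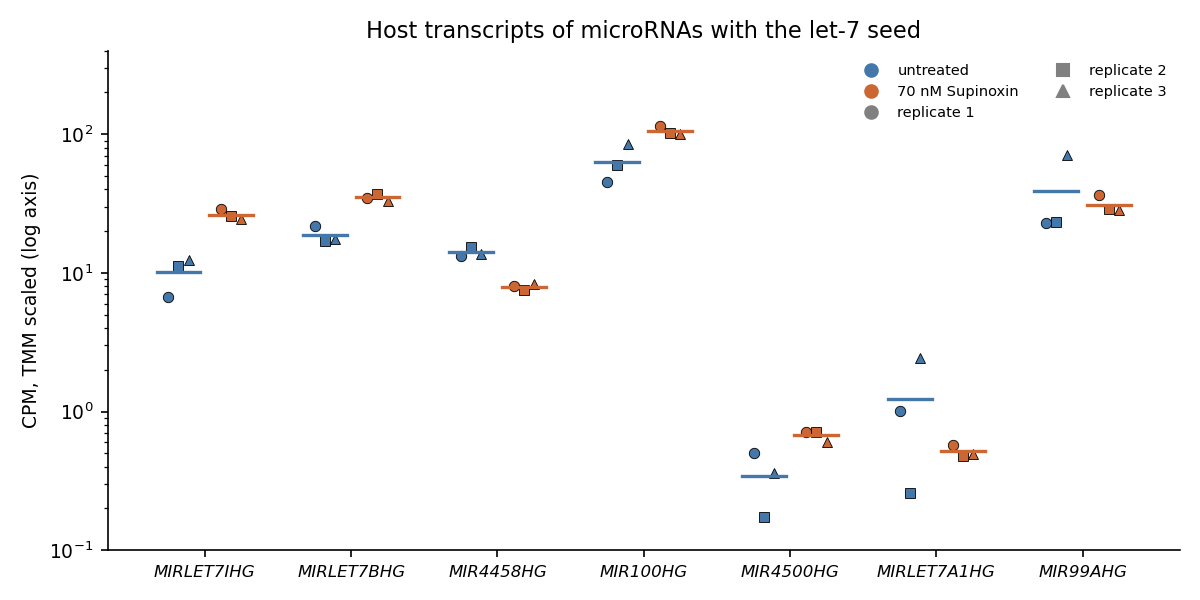
CPM (vertical log axis) in each library of the 7 tested host transcripts of microRNAs with the let-7 seed, ordered by p, with bars for group means. MIRLET7IHG, MIRLET7BHG and MIR100HG are higher in every Supinoxin library, MIR4458HG is lower, and MIR99AHG in untreated replicate 3 stands at 70.6 CPM.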

How the data were processed

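RNA was measured in 6 libraries of H69AR, 3 with and 3 without Supinoxin. The authors deposited whole-number counts per Ensembl gene, not normalized. The build was GRCh38, with STAR and featureCounts named beside fastp, Trim Galore (0.4.4), edgeR and DESeq2, per the submitters' processing notes, which give no order. Columns were matched to samples by name, with columns named WT taken as untreated because the others name Supinoxin. Of 60605 identifiers, 60463 were matched to GENCODE 44 for symbol, position, exonic length and GC content. Counts were tested in R 4.3.3 with edgeR 4.0.16 (filterByExpr, TMM, robust quasi-likelihood test, two-sided, Benjamini-Hochberg over all 15947 genes, threshold 0.05), and the script was tested on simulated data. CPM use TMM-scaled library sizes, of which 1 CPM is 30.7 to 38.2 counts. Alternatives were DESeq2 1.42.0, other scalings and filters, the replicate block, an offset from splines (5 degrees of freedom) of length and GC content, and each library left out.

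The 10 genes and the lists were chosen with earlier results of these data known. Named genes were the 10, DDX5, DDX17, the 3 smallest p in each direction of each list and the 2 closest genes to DROSHA, DICER1 and AGO2. TNRC6A, TUT4, LIN28B and hosts singled out by seed or by miR-9 were added after their values were seen. A few genes that the rule or the marker lists name are not reported here. Sequences are from RefSeq, and 9 of the 10 genes had a promoter entry. Pairs of same-numbered libraries were checked for shared deviations.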

Additional observations from a re-analysis of the deposited data

How the results depend on the processing

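The number of libraries, 3 a group, limits each test. Counts of called genes under other settings, here and above, are given without the share of all genes called in the same setting. Whether a count moved with the whole table was not tested. Same-numbered libraries deviated with correlations of -0.13, -0.04 and -0.03, so no shared deviation by number was seen. With 3 libraries a group, and untreated replicate 1 apart from the others, this cannot tell whether same-numbered libraries were handled together. With the replicate block 5 of the 10 genes were higher and 1 lower, as without it, and the differences in Argonaute share and in log2 ratio (-10.9, 12.7, -3.11, 1.28, -0.86 and -0.26) equal those without it by construction, which says nothing of their stability. The number of the 10 genes called lower, 1, was 2 with DESeq2 size factors, with DESeq2 and with the filter of 1 CPM, 0 with library size alone, 3 with the length and GC offset with or without the replicate block, and 0 to 2 with a library left out. Without any single library, 5 to 6 were higher. Microprocessor cofactors called higher, 0, were 4 with library size alone and 2 with DESeq2, and 0 to 5 with a library left out. Those called lower, 3, were 6 with the length and GC offset and 1 to 5 with a library left out. Precursor genes called lower, 2, were 1 with library size alone, with no filter and with the replicate block, 5 with the length and GC offset with or without the replicate block, and 1 to 3 with a library left out (3 to 6 higher). Argonaute loading and modification genes called lower, 4, were 1 with library size alone, with no filter and with the replicate block, 7 with the length and GC offset, and 1 to 6 with a library left out (2 to 6 higher). GW182, deadenylation and decapping genes called lower, 3, were 9 with the length and GC offset, 7 with the replicate block added to it, and 2 to 5 with a library left out. Host transcripts called lower, 7, were 4 with the filter of 1 CPM, and 7 to 16 were higher with a library left out. Values that changed sign were DROSHA at 0.027 and DDX5 at 0.043 with library size alone, and DROSHA with a library left out (-0.22 to 0.023). With the length and GC offset AGO1 was at -0.12, AGO3 at -0.16, DDX3X at -0.051 (-0.046 with the replicate block), MIR9-1HG at -0.28 (-0.26 with the replicate block) and LINC00461 at -0.39. With a library left out LIN28B ran from -0.044 to 0.53, LINC00461 from -0.049 to 0.13, MIR99AHG from -0.58 to 0.43 and the log2 ratio of TARBP2 to PRKRA from -0.51 to 0.11. The cause of these changes was not tested. Scaling by library size only shifted the median over all genes by 0.14 on the log2 scale.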

Other observations

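The hosts of miR-9, a neural microRNA made from 3 loci with the same mature sequence, were described after their values were seen.
hsa-miR-9-5p: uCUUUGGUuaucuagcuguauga
LINC00461, the most counted of them, stood at 126, 115 and 122 CPM with Supinoxin and 95.5, 124 and 127 without, with overlapping groups (log2 fold change 0.06, edgeR adjusted p = 0.734; -0.049 without untreated replicate 1 and -0.39 with the length and GC offset, adjusted p = 0.00271). MIR9-1HG stood at 4.63, 6.26 and 6.13 CPM with Supinoxin and 6.81, 4.5 and 4.43 without (log2 fold change 0.11, edgeR adjusted p = 0.697). MIR9-3HG was higher in every Supinoxin library, at 4.1, 4.27 and 3.81 CPM against 1.21, 1.81 and 1.34 (log2 fold change 1.48, SE 0.21, edgeR adjusted p = 0.000793), and was called higher in each of the 14 alternatives.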
